A study of Mus musculus with 9 samples.

Results

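The B cell receptor and identity genes are 9 genes chosen by name, with earlier results of these data known: Cd79a and Cd79b, Blk, Cd22, Cr2, Fcer2a, Ms4a1, Pax5 and Ebf1. Their rows were taken by symbol from a table of 20926 genes, and all 9 passed the filter on low values among the 12366 genes tested in all. Blood RNA of 9 male DBA/1 mice, 7 weeks old when they were divided into groups, was sequenced with 3 mice per group. CIA stands for collagen-induced arthritis, a model of rheumatoid arthritis in which an injected foreign type II collagen provokes an immune attack on the joints. In the CIA+THz mice arthritis was induced alike, and the swollen joint was then exposed to a 0.1 THz wave for 30 min a day over 14 days under isoflurane anaesthesia. The Ctrl mice had no arthritis. Whether the Ctrl mice were given adjuvant, or the Ctrl and CIA mice anaesthesia, is not given in the sources used here. The exposure was local, on the ankle, whereas the RNA came from the circulating blood.

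The B cell receptor is a membrane antibody that binds antigen, joined to a pair of signalling chains, CD79A and CD79B. When antigen is bound, kinases of the SRC family such as BLK phosphorylate the tails of these chains. Coreceptors then raise or lower the signal: CR2 raises it when complement is fixed on the antigen, and CD22 recruits a phosphatase that lowers it. EBF1 and PAX5 are the factors that set up and hold the B cell programme, and most of the other genes here are among their known targets. In blood these genes are read mainly from mature B cells, and they are largely shut off when a B cell becomes an antibody-secreting plasma cell.

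The question put to these 9 genes was whether the blood of arthritic mice carried more or less B cell RNA than that of Ctrl mice, and whether the irradiated arthritic mice differed from either. In bulk blood RNA, fewer B cells and less RNA per B cell cannot be told apart. The membrane antibody itself, encoded by Ighm, Ighd and Igkc, was not analysed here.

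Promoter sequences are shown for 4 members, because Cr2, Fcer2a and Pax5 had the smallest p in CIA+THz against CIA and Cd79a was the member of highest level. Each stretch is the 120 bases before the most upstream annotated start of the gene, read 5′ to 3′ on the strand of the gene, from RefSeq on GRCm38.p6. Capitals mark the letters CACCTG, an E-box to which the B lineage factor encoded by Tcf3 is known to bind, on either strand (CAGGTG where it lies on the other strand).
Cr2, chr1:195176720-195176839, minus strand: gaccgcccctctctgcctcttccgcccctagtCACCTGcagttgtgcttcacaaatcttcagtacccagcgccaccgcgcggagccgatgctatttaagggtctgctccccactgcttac
Fcer2a, chr8:3694176-3694295, minus strand: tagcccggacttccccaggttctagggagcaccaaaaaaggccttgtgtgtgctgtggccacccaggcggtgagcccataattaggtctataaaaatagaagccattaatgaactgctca
Pax5, chr4:44710695-44710814, minus strand: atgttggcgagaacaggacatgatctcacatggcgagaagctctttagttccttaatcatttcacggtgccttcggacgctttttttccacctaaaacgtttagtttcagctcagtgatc
Cd79a, chr7:24897261-24897380, plus strand: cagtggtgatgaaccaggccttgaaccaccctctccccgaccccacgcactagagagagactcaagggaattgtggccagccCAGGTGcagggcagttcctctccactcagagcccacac
The capitals appear in the stretches of Cr2 and Cd79a and in neither of the other two. RefSeq promoters were at hand for 6 of the 9 members, as 9 promoters, and the 250 bases before each start were searched on both strands for CACCTG, for a second E-box CAGCTG, for the EBF letters CCCNNGGG and for the octamer ATGCAAAT. Of the 6 members, 4 held at least 1 of them in some promoter. The share of all promoters or genes with at least 1 of them was not computed, so this count has no background. Cd22 held CCCTGGGG and CACCTG, Fcer2a held CAGCTG and CACCTG at a start further downstream than the one shown, and Cr2 and Cd79a held CACCTG. These letters are common: CACCTG was found in 17.2% of 32851 promoters, CAGCTG in 4271 of them, CCCNNGGG in 11.8% and ATGCAAAT in 1.60%.

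Levels are given as rescaled FPKM, a read abundance set per transcript length and per sequencing depth, with each library divided by 1 factor that brings the libraries to a common median. The FPKM carry no read counts, so the absolute depth of the libraries is unknown. Relative to the first Ctrl library, the depth read from the smallest values was 1 to 1.10 (Ctrl), 1.01 to 1.28 (CIA) and 1.35 to 1.87 (CIA+THz), so that the CIA+THz libraries were the deeper ones. Libraries of the same group correlated at 0.934 to 0.963 over all tested genes and libraries of different groups at 0.923 to 0.957. The sample labels name leukocytes, while the methods describe RNA from blood, and red cell RNA was present: Alas2, the erythroid enzyme of heme synthesis, made up 14.4 to 16.6% of the summed FPKM in Ctrl, 16.3 to 16.7% in CIA but 11.4 to 14.0% in CIA+THz.

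All 9 genes were read in every library. Cd79a had the highest level in all 9 libraries, with a mean of 254 rescaled FPKM, and Ebf1 the lowest, with a mean of 2.62, so that the means spanned 97.0-fold. Ms4a1, the gene of the B cell surface protein CD20, came next after Cd79a with a mean of 82.9, and its libraries overlapped those of Cd22 and Cd79b. Cd22 at 55.5, Cd79b at 52.8 and Cr2 at 43.0 followed, and the libraries of these genes overlapped. Pax5 at 14.9, Fcer2a at 12.7 and Blk at 8.63 lay below them, and their libraries overlapped too. Rag2, Igll1 and Vpreb2, genes of B cell precursors in bone marrow, were listed at 0 in all 9 libraries.

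**Figure D1:**
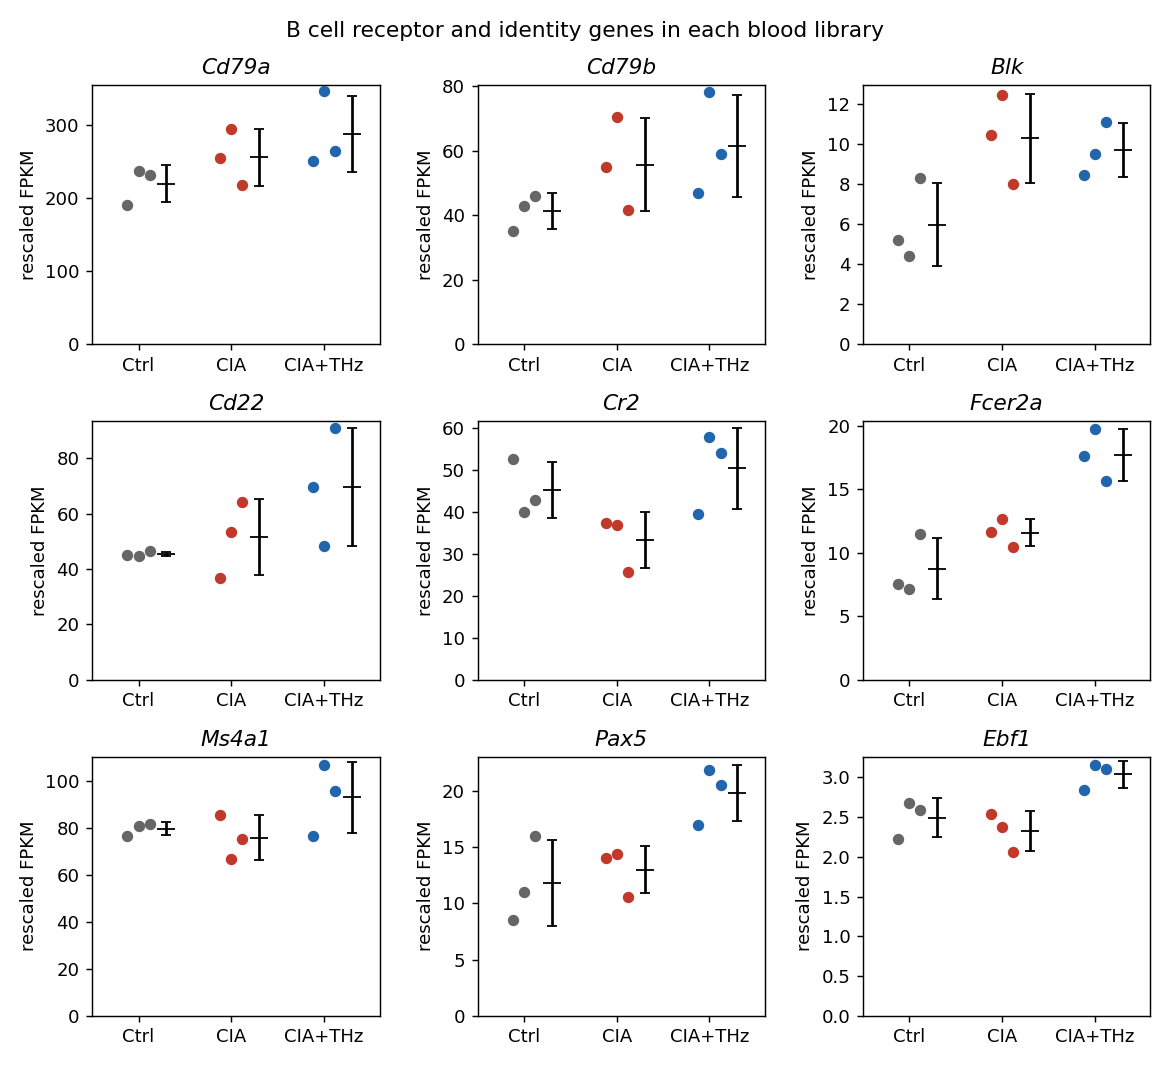
Level of each of the 9 genes in rescaled FPKM on a linear axis from 0, with 1 point per library and the mean ± SD of 3 libraries beside the points. Fcer2a lies between 15.6 and 19.7 in the CIA+THz libraries and at or below 12.6 in the other 6, and the Cr2 libraries of CIA lie below those of both other groups.

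Across the 3 groups, 4 of the 9 genes, Fcer2a, Pax5, Blk and Cr2, passed an unadjusted p under 0.05 in limma's F-test, the study's threshold. Of all tested genes, 21.3% passed it. After Benjamini-Hochberg adjustment over all tested genes, Fcer2a was the 1 member under 0.05 (limma adjusted p = 0.0437), against 2.53% of all tested genes. The adjusted p of the others was 0.133 for Pax5, 0.143 for Blk, 0.171 for Cr2 and between 0.272 and 0.536 for the remaining 5. For Fcer2a it ranged from 0.0262 to 0.145 over 18 alternative settings and stayed under 0.05 in 6 of them. Among the 6 is the adjusted p as criterion, which keeps the fit and its p-values and so is no check of them. The adjusted p was 0.0262 without Ctrl replicate 3 and between 0.0739 and 0.145 when any other library was left out, while the unadjusted p stayed under 0.05 in all 18. The unadjusted calls of the other three were each lost with some single libraries left out. Blk no longer passed without Ctrl replicate 1 or 2, Pax5 without CIA+THz replicate 2 or 3, and Cr2 without CIA replicate 3 or CIA+THz replicate 2 or 3. In an analysis of variance on linear values Fcer2a, Pax5 and Ebf1 passed the unadjusted threshold, and Blk and Cr2 did not. Cr2 also failed it in the F-test without the trend. For a pair of groups, a permutation test of a single gene with 3 against 3 mice cannot go below an exact p of 0.1. The calls for pairs of groups given below therefore rest on limma's model, which pools the spread over genes.

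In CIA against Ctrl the members did not move together: 6 were higher and 3 lower in mean. The median log2 difference was 0.17, against -0.0051 over all tested genes. The criterion for a pair of groups was an unadjusted p under 0.05 with an absolute log2 difference above 0.67. It was passed by 1 member, Blk, which was higher, against 9.04% of all tested genes in either direction and 4.79% higher. Cr2 and Blk had an unadjusted p under 0.05, against 17.3% of all tested genes. Cr2 was the 1 member whose CIA libraries all lay below the Ctrl libraries, a pattern seen in 11.8% of tested genes, and no member's CIA libraries all lay above, as they did for 11.8%. No member had an adjusted p under 0.05 by limma (0.225 to 0.883), which 0.154% of tested genes reached.

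In CIA+THz against CIA, 8 members were higher and 1 lower, with a median log2 difference of 0.37 against 0.025 over all tested genes. None passed the criterion, which 4.54% of tested genes passed. Fcer2a, Pax5 and Cr2 had an unadjusted p under 0.05 with log2 differences of 0.60 to 0.61, against 13.2% of tested genes in either direction and 5.89% higher. For Cr2, Fcer2a, Pax5 and Ebf1 all CIA+THz libraries lay above all CIA libraries, which was the case for 9.38% of tested genes. The adjusted p by limma lay between 0.210 and 0.908 for the members, and 0 of 12366 genes were under 0.05, with 1634 under an unadjusted 0.05.

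The size of this difference depended on the scaling of the libraries. On FPKM as deposited the members' median was 0.64, all 9 were higher, and 4 passed the criterion: Cr2 at 0.88, Fcer2a at 0.88, Pax5 at 0.89 and Cd22 at 0.70. With a factor computed without erythroid genes the median was 0.62 and Cr2, Fcer2a and Pax5 passed. The median of all tested genes moved too, to 0.29 and 0.27, and the members' median stood above it by 0.35 under each of the 3 scalings. In CIA+THz against Ctrl the excess over the median of all genes was 0.51, 0.53 and 0.52, and in CIA against Ctrl it was 0.18 under each. A factor shifts all genes of a library alike, apart from the pseudocount. The excess is thus nearly the same under any such scaling, and its agreement is no check of the result. The most abundant erythroid marker, Alas2, was at 47174 to 65083 rescaled FPKM in the CIA+THz libraries, against 86779 to 97383 in CIA and 68755 to 102970 in Ctrl, and it made up most of the summed level of the 10 erythroid markers (54241 to 75249, 97682 to 110980 and 79286 to 122635). The median log2 difference of the 10 in CIA+THz against CIA was -0.11, and it turned to 0.16 on FPKM as deposited and to 0.14 with the factor without erythroid genes. These scalings do not isolate the part of the erythroid RNA in the members' values, which was not tested.

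In CIA+THz against Ctrl all 9 members were higher, with a median log2 difference of 0.55 against 0.039 over all tested genes. Fcer2a, Pax5 and Blk rose past the criterion, which 7.88% of tested genes passed in either direction and 4.64% upwards. Those 3 and Cd79a, Cd79b and Cd22 had an unadjusted p under 0.05, against 18.1% of tested genes in either direction and 8.39% higher. For 7 members, all but Ms4a1 and Cr2, all CIA+THz libraries lay above all Ctrl libraries, against 11.9% of tested genes. The adjusted p by limma ranged from 0.0991 to 0.684 and was under 0.05 for no member and for 0.105% of tested genes. The comparisons share groups, each of the 3 groups entering 2 of them, so they are not independent of each other.

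**Figure D2:**
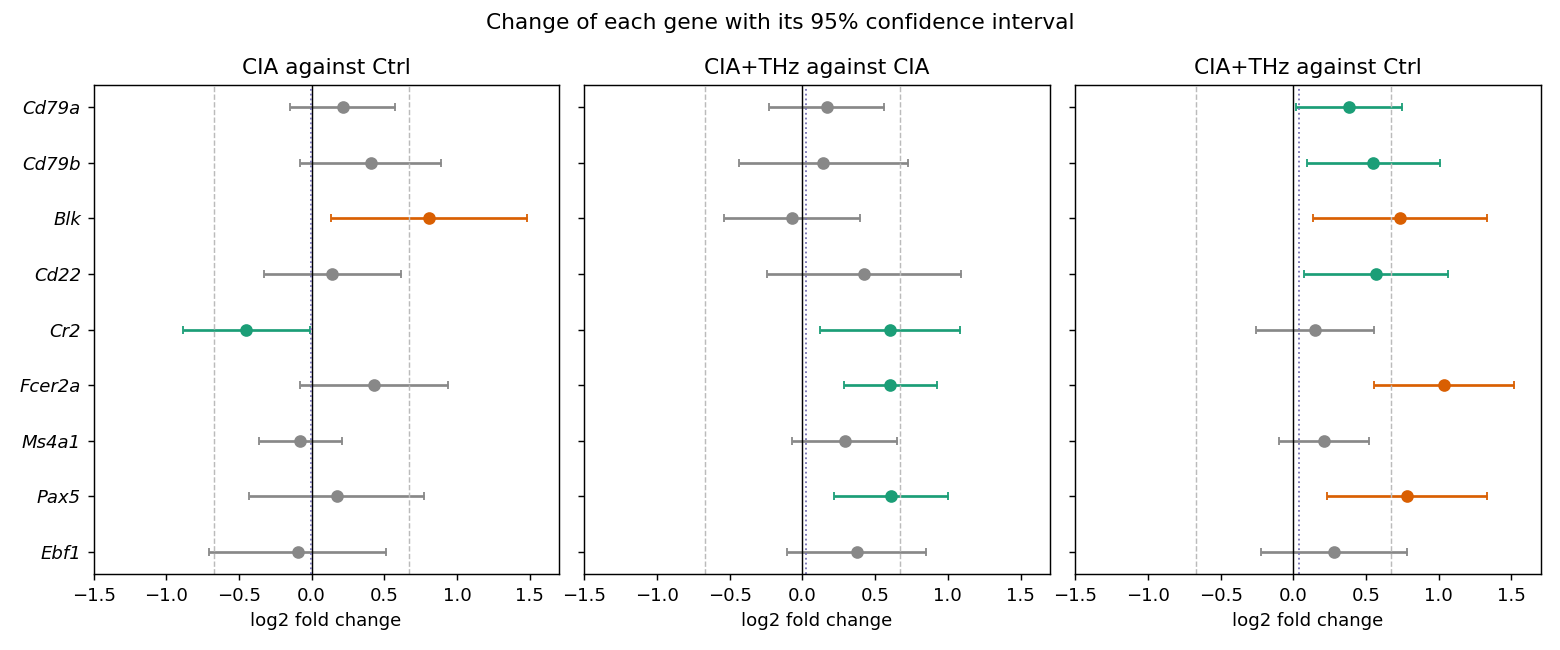
Log2 difference of each gene in the 3 comparisons, as a point with its 95% confidence interval from limma, on log2(rescaled FPKM + 0.1). Dashed lines mark 0.67 in either direction, the dotted line the median of all tested genes, orange a gene past the criterion, green an unadjusted p under 0.05 alone and grey neither: Blk is orange in CIA against Ctrl, and Fcer2a, Pax5 and Blk in CIA+THz against Ctrl.

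Cd79a and Cd79b, the signalling chains without which the receptor does not reach the cell surface, lie at chr7:24897381-24902197 and chr11:106311341-106314762 (GRCm38, as are all gene positions here). Cd79a was at 190.2, 236 and 231 rescaled FPKM in the Ctrl libraries, 255, 295 and 217 in CIA and 251, 347 and 265 in CIA+THz. Cd79b was at 35.2, 42.8 and 45.8 in Ctrl, 54.9, 70.5 and 41.7 in CIA and 47.0, 78.3 and 59.1 in CIA+THz. The CIA libraries of both genes overlapped those of the other groups, and the CIA+THz libraries lay above Ctrl in each. Against Ctrl, CIA+THz was higher by 0.38 ± 0.16 (log2, SE) for Cd79a (adjusted p = 0.257 by limma) and by 0.55 ± 0.20 for Cd79b (adjusted p = 0.211 by limma), both past an unadjusted 0.05. Without CIA+THz replicate 2, the library highest in both genes, the differences became 0.24 and 0.36 and neither passed. Cd79a also failed it without Ctrl replicate 1 (0.28), Ctrl replicate 3 (0.42) or CIA+THz replicate 3 (0.43), and Cd79b without Ctrl replicate 1 (0.44) or CIA+THz replicate 3 (0.56), while Cd79b passed the criterion without CIA+THz replicate 1 (0.73). Without the trend neither gene passed an unadjusted 0.05, and without the filter Cd79a did not. Between CIA and CIA+THz the interval of the difference was -0.23 to 0.56 for Cd79a and -0.44 to 0.73 for Cd79b, and Cd79a passed an unadjusted 0.05 there at 0.44 on FPKM as deposited and 0.42 with scaling without erythroid genes. The levels of these partner chains followed each other closely, with a Pearson r of 0.97 over the 9 libraries.

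Blk encodes the SRC family kinase that acts on those chains, and lies at chr14:63372836-63417037. It was at 5.18, 4.37 and 8.31 rescaled FPKM in the Ctrl libraries, 10.4, 12.4 and 7.98 in CIA and 8.42, 9.50 and 11.1 in CIA+THz. Blk was the member that rose in CIA, from a mean of 5.95 ± 2.08 (SD, n = 3) to 10.3 ± 2.23, a log2 difference of 0.81 ± 0.29 (SE) or 1.75-fold (adjusted p = 0.225 by limma). The third Ctrl library lay above the lowest CIA library, so the groups overlapped. The call was lost in 4 of the 6 fits with a library left out, at 0.74 without Ctrl replicate 1, 0.62 without Ctrl replicate 2, 0.79 without CIA replicate 1 and 0.66 without CIA replicate 2. It was also lost with scaling without erythroid genes (0.80) and with the replicate number as a block (0.81). CIA+THz was close to CIA, with a difference of -0.073 and an interval of -0.54 to 0.40, and its sign turned under other scalings, to 0.20 on FPKM as deposited. Against Ctrl, Blk rose by 0.74 ± 0.26 in CIA+THz (adjusted p = 0.205 by limma), and the groups did not overlap. That call was lost without Ctrl replicate 1 (0.66), Ctrl replicate 2 (0.54), CIA+THz replicate 2 (0.74) or CIA+THz replicate 3 (0.63), and with a pseudocount of 1 (0.65).

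Cd22, at chr7:30865402-30880342, encodes the sialic acid binding coreceptor that dampens the signal. The 3 Ctrl libraries were nearly alike at 45.1, 44.8 and 46.3 rescaled FPKM, whereas the CIA libraries were at 36.8, 53.5 and 64.2 and the CIA+THz libraries at 69.5, 48.5 and 90.8. Their SD was 0.821 (Ctrl), 13.8 (CIA) and 21.2 (CIA+THz), and a difference in spread was not tested. CIA libraries lay on either side of Ctrl, and the difference was 0.14 ± 0.20 (log2, SE, adjusted p = 0.752 by limma). CIA+THz lay above Ctrl in all 3 libraries, by 0.57 ± 0.21 (adjusted p = 0.225 by limma), past an unadjusted 0.05. It passed the criterion without CIA+THz replicate 2, the lowest of them, at 0.81, and failed even the unadjusted threshold without CIA+THz replicate 3 (0.35), CIA+THz replicate 1 (0.55) or any 1 Ctrl library (0.56 to 0.58). The unadjusted threshold was also missed without the filter or without the trend. From CIA to CIA+THz the interval was -0.24 to 1.09.

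Cr2, at chr1:195136811-195176716, encodes a complement receptor of mature B cells. It was at 52.7, 40.0 and 42.8 rescaled FPKM in the Ctrl libraries, 37.3, 36.9 and 25.6 in CIA and 39.6, 57.8 and 54.0 in CIA+THz. CIA stood below both other groups with no overlap: its mean was 33.3 ± 6.62 (SD, n = 3), against 45.2 ± 6.68 in Ctrl and 50.4 ± 9.61 in CIA+THz. The log2 difference of CIA from Ctrl was -0.45 ± 0.19 (SE, adjusted p = 0.278 by limma). It no longer passed an unadjusted 0.05 without Ctrl replicate 1 (-0.33), Ctrl replicate 3 (-0.48), CIA replicate 2 (-0.53) or CIA replicate 3 (-0.27). Nor did it pass on FPKM as deposited (-0.42), without the filter or without the trend. CIA+THz was above CIA by 0.60 ± 0.20 (adjusted p = 0.301 by limma), a 1.52-fold difference with an interval of 1.09 to 2.12. That difference no longer passed without CIA replicate 3 (0.42), CIA+THz replicate 2 (0.49) or CIA+THz replicate 3 (0.54), and it passed the full criterion without CIA replicate 1 (0.69), CIA replicate 2 (0.68) or CIA+THz replicate 1 (0.77). CIA+THz and Ctrl differed by 0.15, with an interval of -0.26 to 0.56.

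Fcer2a, at chr8:3681737-3694175, encodes CD23, the low affinity IgE receptor that marks mature follicular B cells. It was at 7.58, 7.15 and 11.5 rescaled FPKM in the Ctrl libraries, 11.6, 12.6 and 10.5 in CIA and 17.6, 19.7 and 15.6 in CIA+THz. The 3 CIA+THz libraries stood above the other 6, and CIA and Ctrl overlapped. Against Ctrl, CIA+THz rose 2.05-fold, from 8.75 ± 2.40 (SD, n = 3) to 17.7 ± 2.04, with a 95% interval of 1.47 to 2.86 (log2 1.03 ± 0.21 SE, adjusted p = 0.0991 by limma). With any 1 library of these groups left out the log2 difference stayed between 0.91 and 1.25 and past the criterion. Against CIA, at 11.6 ± 1.07, CIA+THz was higher by 0.60 ± 0.13 (adjusted p = 0.210 by limma), which is a 1.52-fold difference with an interval of 1.22 to 1.90. Its unadjusted p stayed under 0.05 in all 15 alternatives, of which the adjusted p as criterion leaves that p unchanged. The difference passed the fold threshold in 3 of the 15, among them without CIA+THz replicate 3 (0.69). CIA against Ctrl gave 0.43 ± 0.22 (adjusted p = 0.353 by limma), short of both thresholds.

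Ms4a1, at chr19:11249675-11266241, encodes CD20, the surface protein targeted by B cell depleting antibodies. It was at 76.8, 80.9 and 81.6 rescaled FPKM in the Ctrl libraries, 85.7, 66.7 and 75.2 in CIA and 76.8, 106.9 and 95.8 in CIA+THz. All 3 pairs of groups overlapped. CIA differed from Ctrl by -0.079 (log2), with an interval of -0.37 to 0.21. CIA+THz differed from CIA by 0.29, with an interval of -0.072 to 0.65, and from Ctrl by 0.21, with an interval of -0.10 to 0.52. These intervals, on rescaled FPKM, leave out a change of Ms4a1 as large as that of Fcer2a against Ctrl. On FPKM as deposited Ms4a1 was higher in CIA+THz by 0.57 against CIA and by 0.52 against Ctrl, and with scaling without erythroid genes by 0.55 and 0.46, all past an unadjusted 0.05. Without CIA+THz replicate 1 both differences also passed it (0.42 and 0.34).

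Pax5, at chr4:44524757-44710487, encodes the factor that keeps a B cell committed to its lineage. It was at 8.49, 11.0 and 16.0 rescaled FPKM in the Ctrl libraries, 14.0, 14.4 and 10.6 in CIA and 17.0, 21.9 and 20.6 in CIA+THz. All CIA+THz libraries lay above the other 6, and CIA lay within the range of Ctrl. Pax5 rose from 11.8 ± 3.81 (SD, n = 3) in Ctrl to 19.8 ± 2.53 in CIA+THz, a log2 difference of 0.78 ± 0.23 (SE, adjusted p = 0.165 by limma). It was 0.57 without Ctrl replicate 1, which ends the call at the fold threshold, and 0.71 to 1.02 with any other library left out. Against CIA, at 13.01 ± 2.10, the difference was 0.61 ± 0.16 (adjusted p = 0.249 by limma). The unadjusted p stayed under 0.05 in all 15 alternatives, of which the adjusted p as criterion leaves that p unchanged. The difference passed the fold threshold in 4 of the 15, among them without CIA replicate 2 (0.69) or CIA+THz replicate 1 (0.72).

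Ebf1, at chr11:44617317-45008091, encodes the factor that acts before PAX5 and with it. It was at 2.22, 2.68 and 2.58 rescaled FPKM in the Ctrl libraries, 2.54, 2.38 and 2.06 in CIA and 2.84, 3.15 and 3.11 in CIA+THz. The CIA+THz libraries were above the other 6, while Ctrl and CIA overlapped. On rescaled FPKM the differences passed no threshold: 0.37 ± 0.20 (log2, SE, adjusted p = 0.469 by limma) against CIA and 0.28 ± 0.21 (adjusted p = 0.535 by limma) against Ctrl. Against CIA the difference passed an unadjusted 0.05 at 0.64 on FPKM as deposited, at 0.62 with scaling without erythroid genes and, at 0.37, without the trend, and against Ctrl at 0.57 on FPKM as deposited. On this scale the pseudocount of 0.1 understates the change of low genes such as Ebf1.

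The balance among the 9 genes was also read within each library, as the log2 level of a gene minus the mean log2 level of the other 8. The scaling of a library has almost no bearing on this measure. Each value depends on the other 8 genes, and the measure was given no test and no background over all genes. Cr2 stood 1.05 above the other genes in Ctrl, 0.35 above in CIA and 0.63 above in CIA+THz, and the libraries of both arthritic groups lay below Ctrl without overlap. For CIA+THz this was almost a tie, with its highest library at 0.754 and the lowest Ctrl library at 0.758. Blk moved the other way, from -2.26 (Ctrl) to -1.55 (CIA) and -2.02 (CIA+THz), with CIA above both other groups without overlap. Fcer2a stood at -1.62, -1.34 and -1.05 in the same order, and its CIA and CIA+THz libraries lay above those of Ctrl. For CIA this too was almost a tie, with its lowest library at -1.356 and the highest Ctrl library at -1.362. Pax5 was at -1.16 in both Ctrl and CIA and at -0.86 in CIA+THz, whose libraries lay above those of CIA. Ms4a1 was lower in CIA+THz (1.63) than in Ctrl (1.98), and Ebf1 lower in CIA (-3.89) and CIA+THz (-3.86) than in Ctrl (-3.58), each without overlap. The lowest Ctrl library of Ebf1 was at -3.74, close to the highest of CIA (-3.77) and CIA+THz (-3.76). For Cd79a, Cd79b and Cd22 every pair of groups overlapped.

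**Figure D3:**
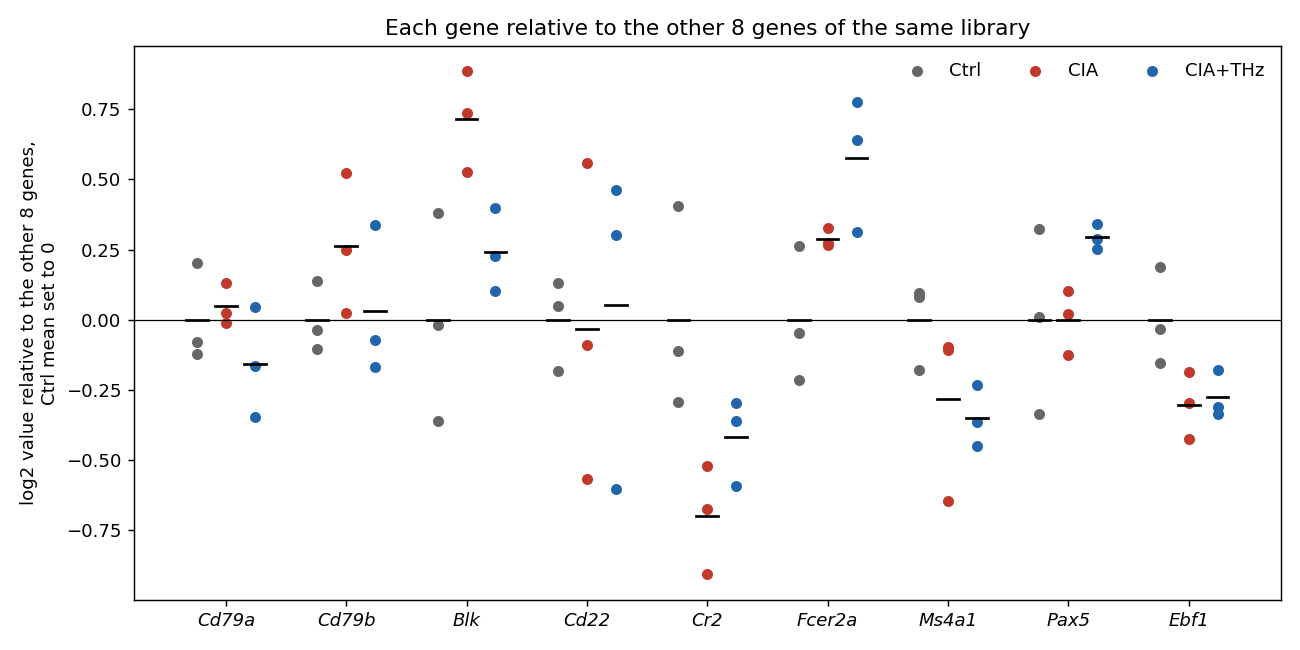
Log2 level of each gene minus the mean log2 level of the other 8 genes in the same library, with the Ctrl mean of each gene set to 0; points are libraries and bars group means. CIA is lowest for Cr2 and highest for Blk, and Fcer2a is highest in CIA+THz, with means of 0.35, -1.55 and -1.05 before the Ctrl mean is taken off.

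Over the 9 libraries, 35 of the 36 pairs of members had a positive Pearson correlation of log2 levels, with a median r of 0.53. These points share the scaling of their library and the group means. With the group means removed, 28 pairs were positive and the median was 0.40. Over the 9 libraries Fcer2a and Pax5 followed each other at 0.90 and Pax5 and Ebf1 at 0.85. Cr2 and Blk had the 1 negative value there, -0.030, which was 0.45 with the group means removed. Cd22 stood apart, with a median r of 0.19 to the other 8 and of -0.45 with the group means removed. Of 9572 genes outside all lists with a mean of at least 1, the 10 most like the mean log2 level of the 9 genes had an r of 0.90 to 0.95 over the 9 libraries. They were picked for the highest r, and these values were given no test and no background. The closest was Hvcn1, a proton channel of B cells and other leukocytes, at 76.2 ± 13.5 rescaled FPKM (Ctrl), 84.1 ± 17.7 (CIA) and 105.5 ± 13.6 (CIA+THz). It was followed by Eftud2, Tmem186, Rnps1, Snd1, Taz, Sp2, Scaf11, Ecsit and Mier2.

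The wider pathway was described with lists of genes that are not among the 9. In the B cell receptor signalling list, with Syk, Btk, Blnk and Plcg2 among its 25 genes, none passed the criterion in any comparison. Its median log2 difference was -0.035 between Ctrl and CIA and 0.17 between CIA and CIA+THz. From Ctrl to CIA+THz 11 genes were higher and 14 lower with a median of -0.016, whose sign turned to 0.29 on FPKM as deposited and to 0.23 with scaling without erythroid genes. Many of these signalling genes are also used by myeloid or T cells. Of 18 other transcription factors of the B lineage none passed in any comparison, with medians of 0.061, 0.11 and 0.18 in the same order.

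The 15 inhibitors of the receptor had medians of 0.11 (CIA against Ctrl), -0.021 (CIA+THz against CIA) and 0.028 (CIA+THz against Ctrl), and the -0.021 turned to 0.25 on FPKM as deposited and to 0.23 with scaling without erythroid genes. Among them Cd5 (0.79 ± 0.21, adjusted p = 0.239 by limma) and Lair1 (0.71 ± 0.24, adjusted p = 0.306 by limma) rose past the criterion in CIA+THz against CIA. Against Ctrl, Lair1 also rose past it (0.83 ± 0.27, adjusted p = 0.189 by limma). That made 2 of the 15 against CIA and 1 against Ctrl. Of the 12366 tested genes, 363 passed upwards against CIA and 4.64% against Ctrl. Cd5 is also a T cell gene, and Lair1 is an inhibitory collagen receptor of many leukocytes. These calls rested on single libraries. Cd5 no longer passed without CIA replicate 2 (0.66) or CIA+THz replicate 1 (0.58). Lair1 no longer passed against CIA without CIA replicate 2 (0.68), CIA replicate 3 (0.61), CIA+THz replicate 1 (0.76) or CIA+THz replicate 3 (0.49), nor against Ctrl without Ctrl replicate 1 (0.81), Ctrl replicate 2 (0.66) or CIA+THz replicate 3 (0.60).

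More genes moved among the 19 of B cell surface and survival, a list that shares 1 gene with the signalling list. The list median was 0.12 in CIA against Ctrl and 0.24 in CIA+THz against CIA. In CIA against Ctrl 4 rose past the criterion and 1 fell, against 4.79% of all tested genes higher and 4.25% lower. The 4 were Fcmr, the IgM receptor, by 0.70 ± 0.20, Ly6d by 0.74 ± 0.22, H2-DMb2, a chain of the peptide loading protein of MHC class II, by 0.83 ± 0.26 and Cd40, the receptor for T cell help, by 0.95 ± 0.31. Their adjusted p-values were 0.156, 0.170, 0.194 and 0.2003 by limma. The 1 that fell was Cd24a, which red cell precursors also express and which is named here after its values were seen. Leaving out 1 library ended the call of Fcmr (Ctrl replicate 1 at 0.66, CIA replicate 2 at 0.52) and of Ly6d (Ctrl replicate 2 at 0.61, CIA replicate 2 at 0.54). It also ended that of H2-DMb2 (Ctrl replicate 1 at 0.63, Ctrl replicate 2 at 0.76, CIA replicate 2 at 0.65) and of Cd40 (Ctrl replicate 1 at 0.94, Ctrl replicate 2 at 0.72, CIA replicate 1 at 0.70).

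In CIA+THz against Ctrl the same 4 genes rose and Cd24a fell, and the median of the list was 0.43. Of all tested genes, 4.64% passed the criterion upwards there and 3.24% downwards. Fcmr rose by 0.91 ± 0.14 (adjusted p = 0.0660 by limma) and H2-DMb2 by 0.99 ± 0.23 (adjusted p = 0.125 by limma), and both passed with each of the 6 libraries left out in turn. Fcmr went from 63.9 ± 3.73 rescaled FPKM (SD, n = 3, Ctrl) to 106.5 ± 28.3 (CIA) and 121 ± 21.5 (CIA+THz). Ly6d rose by 0.70 ± 0.16, but not without Ctrl replicate 2 (0.56) or CIA+THz replicate 2 (0.60). Cd24a fell by 0.94 (SE 0.28), with the call lost without Ctrl replicate 1 (-0.81) or CIA+THz replicate 1 (-0.78). In CIA+THz against CIA, Cd38 rose by 0.70 ± 0.18 (adjusted p = 0.238 by limma), which was lost without CIA replicate 3 (0.63), CIA+THz replicate 2 (0.67) or CIA+THz replicate 3 (0.55).

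Genes of other B cell stages were also read. Of 9 plasma cell markers 8 were lower in CIA than in Ctrl and 4 fell past the criterion, as did 4.25% of all tested genes. In CIA+THz against Ctrl 8 were lower and 3 fell, against 3.24% of tested genes. Set against CIA, 7 of the 9 had a higher mean under CIA+THz. The list medians were -0.81, -0.69 and 0.23 in that order. The markers that fell in CIA were Jchain, Derl3, Mzb1 and Tnfrsf17, and the call of Tnfrsf17, which was listed at 0 in some CIA libraries, was lost without Ctrl replicate 2 or 3 or CIA replicate 1 or 2. Jchain, the chain that joins secreted antibodies, was at 71.8 ± 8.42 rescaled FPKM (SD, n = 3, Ctrl), 6.11 ± 0.803 (CIA) and 11.3 (CIA+THz, where the libraries lay between 6.88 and 14.7). It fell by 3.53 on the log2 scale in CIA (SE 0.15, adjusted p = 0.000688 by limma) and by 2.72 in CIA+THz against Ctrl (adjusted p = 0.0305 by limma), and passed with each library left out. Between the arthritic groups Jchain was higher in CIA+THz by 0.81 (adjusted p = 0.319 by limma), past the criterion, but not without CIA replicate 2 (0.70), CIA replicate 3 (0.85), CIA+THz replicate 2 (0.59) or CIA+THz replicate 3 (0.72). Of 7 germinal centre genes tested 5 were lower in CIA than in Ctrl and none passed, with a median of -0.62, and the median of CIA+THz against Ctrl was -0.55. Between CIA and CIA+THz it was -0.17 and turned to 0.094 on FPKM as deposited and to 0.074 with scaling without erythroid genes. Mki67, a proliferation gene of any dividing cell, fell by 0.95 in CIA+THz against Ctrl (adjusted p = 0.106 by limma). Of 5 precursor genes tested 4 were lower in CIA than in Ctrl. Under CIA+THz 3 of these 5 exceeded their CIA mean and 2 their Ctrl mean, and 4 did so in each case on FPKM as deposited. Il7r, a receptor of B cell precursors that T cells also carry, fell in CIA by 0.87 (adjusted p = 0.0461 by limma). Dntt, an enzyme of precursors, was listed at 0 in all CIA libraries, had a middle value of 0 and a highest of 0.391 in Ctrl, and lay between 0.467 and 1.21 in CIA+THz. These are low values, and the CIA+THz libraries were the deeper ones. The 11 marginal zone and B-1 genes had medians of -0.097 (CIA against Ctrl), -0.13 (CIA+THz against CIA) and 0.013 (CIA+THz against Ctrl), and the -0.13 turned to 0.15 on FPKM as deposited and to 0.13 with scaling without erythroid genes. Among them Myof, which other cells also express, rose by 2.51 in CIA (adjusted p = 0.0669 by limma). Mzb1, which is also in the plasma cell list, fell there by 0.92 (adjusted p = 0.206 by limma), but not without Ctrl replicate 2 (-0.77), Ctrl replicate 3 (-0.91) or CIA replicate 3 (-0.60). The calls of Mki67, Il7r and Myof also stood with each library left out.

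Levels in blood are shares of its RNA, so the mean log2 level of the 9 genes was set against that of marker lists of other cells in the same library, with no test. Against 11 T cell markers the B cell genes stood at -0.015 (Ctrl), 0.55 (CIA) and 0.54 (CIA+THz), and the libraries of both arthritic groups lay above Ctrl without overlap. CIA+THz and CIA differed by -0.0013 on this measure, with overlapping libraries. All 11 T cell markers were lower in mean in CIA than in Ctrl and all 11 higher in CIA+THz than in CIA, with list medians of -0.30 and 0.35. Against 9 plasma cell markers the value was 2.23 (Ctrl), 3.57 (CIA) and 3.72 (CIA+THz), with no overlap of either arthritic group with Ctrl. Against 10 monocyte markers it was -0.95 (Ctrl), -1.78 (CIA) and -0.95 (CIA+THz). The CIA libraries lay below both other groups there, and the summed level of the monocyte list was 5298 to 5833 in CIA, against 3092 to 3468 in Ctrl and 3500 to 3773 in CIA+THz. Against 10 neutrophil markers it was -3.58, -3.70 and -2.78, and against 6 leukocyte markers -2.96, -2.88 and -2.44, with the CIA+THz libraries above both other groups in each. Against 8 NK cell markers it was 1.20, 2.16 and 2.08, against 7 platelet markers -3.44, -3.28 and -2.62, and against 10 erythroid markers -2.64, -1.92 and -1.47, in the order Ctrl, CIA, CIA+THz. Against 12 genes expressed in all cell types it was -2.27, -2.24 and -1.79 in the same order. Relative to these genes and to the platelet markers, too, the CIA+THz libraries lay above both other groups. The summed neutrophil level was 12633 to 21329 (Ctrl), 14476 to 18829 (CIA) and 10707 to 12207 (CIA+THz). The part of these shifts in the members' levels was not tested.

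**Figure D4:**
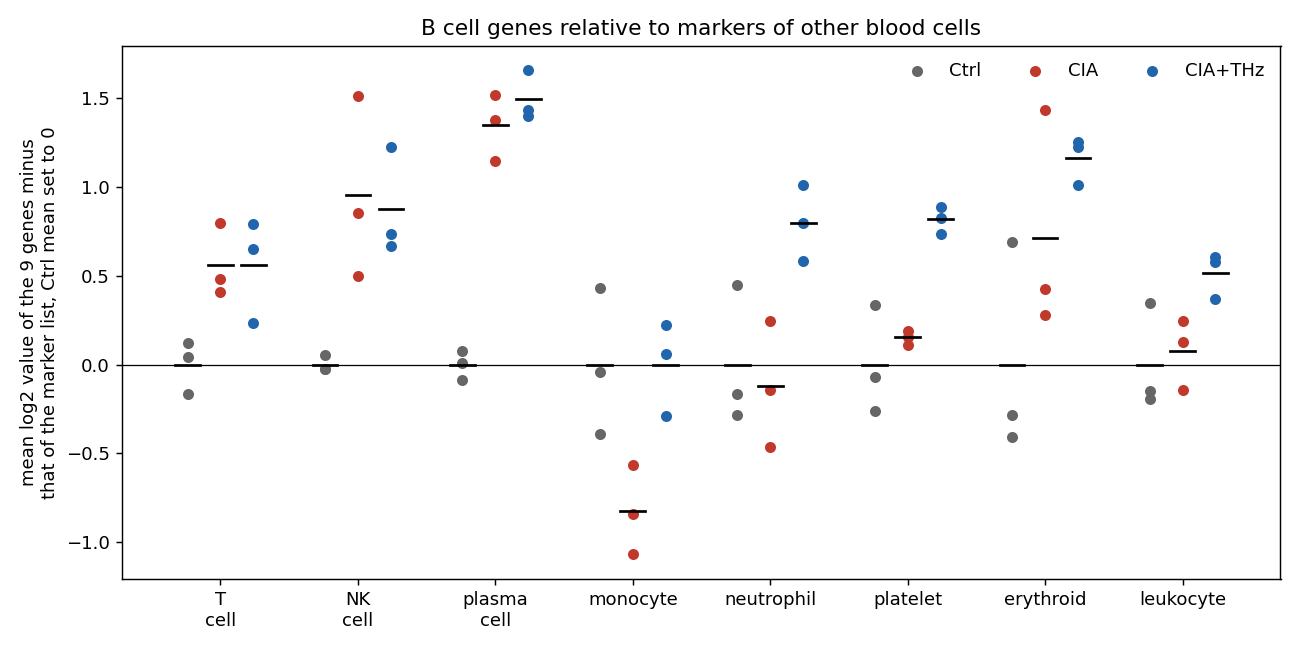
Mean log2 level of the 9 genes minus the mean log2 level of each list of marker genes in the same library, with the Ctrl mean set to 0; points are libraries and bars group means. Relative to T cell and plasma cell markers both arthritic groups lie above Ctrl, and relative to neutrophil, platelet and leukocyte markers the CIA+THz libraries lie above the other 6.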

How the data were processed

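The authors sequenced blood RNA of 9 mice, 3 per group, and deposited FPKM values per gene symbol and library. The submitters' processing notes name bcl2fastq 2.0, HISAT2, StringTie, DESeq2 and the genome build mm10, without their roles. Strand and filters are not given in the sources used here. Groups came from the sample labels, all 9 columns were mapped, and 0 columns were left over.

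Library scaling used median-of-ratios factors (0.847 to 1.24) from the 10312 genes detected in all libraries. Tests covered the 12366 genes whose mean after scaling reached 0.1, on log2(rescaled FPKM + 0.1) with limma 3.58.1 (lmFit, eBayes with a trend) in R 4.3.3. Pairs of groups were fitted on their 6 libraries. The criterion was that of the study, an unadjusted p under 0.05 and, for pairs, an absolute log2 fold change above 0.67. P-values were adjusted over all tested genes (Benjamini-Hochberg). The other values were computed in Python 3.11.15. The test was tried on simulated data with 200 changed genes.

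The members and the marker lists were chosen with earlier results of these data known. All 9 members are named. Other lists are described by counts and, except for the precursor list, medians, and the named genes are among those past the criterion, up to the 4 of smallest p. Some items are not reported here. The 10 genes most alike were ranked by Pearson correlation. Replicate numbers did not pair the mice. Gene positions are those of GENCODE M21, which has 20506 of the 20926 symbols. Low values scatter more, and since FPKM keep no counts, no counting interval is given. The promoters of Ms4a1, Cd79b and Blk, the immunoglobulin constant genes and the T cell receptor constant genes were not analysed here.

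The alternatives were FPKM as deposited, scaling without erythroid genes (a factor from the summed FPKM of all genes but the erythroid markers), a pseudocount of 1, no filter, a mean of at least 1, no trend, the replicate number as a block, all 9 libraries in 1 fit, the adjusted p as criterion, an analysis of variance on linear values across the groups, and each library left out in turn.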

Additional observations from a re-analysis of the deposited data

How the results depend on the processing

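Of 1084 recomputed values for the members, the genes of other B cell lists past the criterion and the members' medians, 918 kept their direction and their side of the threshold (a median, its value within the spread of replicates), 37 passed the threshold newly, 115 lost it, 5 moved by more than the spread between replicates and 9 turned their sign. As computed, the criterion was passed by 1118 genes and 1 member in CIA against Ctrl, 561 and 0 in CIA+THz against CIA, 975 and 3 in CIA+THz against Ctrl, and 2629 and 4 across the 3 groups. On FPKM as deposited these became 1199 and 4 in CIA+THz against CIA, 1720 and 6 in CIA+THz against Ctrl, and 8 members across the groups. With scaling without erythroid genes there were 0 members in CIA against Ctrl, 1127 genes and 3 members in CIA+THz against CIA, 5 members in CIA+THz against Ctrl and 8 across the groups. In the comparisons with CIA+THz both scalings raise the share of higher calls, for example against CIA to 1133 of 1199 on FPKM as deposited from 363 of 561. In CIA against Ctrl 592 of 1118 calls were higher, and 537 of 1066 with scaling without erythroid genes. A pseudocount of 1 left 283 genes in CIA+THz against CIA. With the adjusted p as criterion the counts of genes and members were 19 and 0, 0 and 0, 13 and 0, and 313 and 1, in the order above. Without the filter 12 genes, and without the trend 14, had an adjusted p under 0.05 in CIA+THz against CIA by limma. The replicate numbers did not pair the mice: same-numbered libraries correlated at -0.052 to 0.031 in their deviations from the group means, and 2 of 9 matched their own number best. With the replicate number as a block, 0 members passed in CIA against Ctrl. With each library left out, CIA against Ctrl gave 966 to 1261 genes and 0 to 1 members, CIA+THz against CIA 484 to 745 and 0 to 2, CIA+THz against Ctrl 724 to 1487 and 1 to 4, and the comparison across groups 2059 to 2789 and 2 to 6. The highest count, 1487, came without Ctrl replicate 3, and the lone member in CIA+THz against Ctrl, Fcer2a, without Ctrl replicate 1. The sign turned for Blk in CIA+THz against CIA (0.20 on FPKM as deposited, 0.18 with scaling without erythroid genes, 0.075 without CIA replicate 2 and 0.022 without CIA+THz replicate 1, with a leave-one-out range of -0.24 to 0.075). It turned for Cd79b there (-0.049 without CIA replicate 3 and -0.046 without CIA+THz replicate 2, up to 0.33), and in CIA against Ctrl for Pax5 (-0.041 without Ctrl replicate 1, up to 0.41), Ms4a1 (0.0098 without CIA replicate 2, down to -0.17) and Cd22 (-0.034 without CIA replicate 3, up to 0.37). None of the values with a turned sign passed a threshold, and the cause was not tested. With 3 mice per group and depth unknown, the precision rests on the spread between mice.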
